A study of Mus musculus with 8 samples.

Results

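Described here are 10 mouse genes of nicotinamide adenine dinucleotide (NAD) metabolism, out of 34547 genes with a named transcript: the enzymes that make NAD or its mononucleotide precursors (Nampt, Nmrk1, Naprt, Qprt, Nmnat1, Nmnat3 and Nadsyn1), the kinases that turn NAD into NADP (Nadk and Nadk2), and the carrier that brings NAD into mitochondria (Slc25a51). They were listed by role with results of these livers known, and Slc25a51 stood among the 10 genes that were lower in Nudt7 livers in the fit across all genes, so its difference between the groups is given below as a description, with no test. All 10 passed the filter on low counts. Liver RNA was sequenced from 4 C57BL/6J mice injected through the tail vein with adeno-associated virus (AAV, used to carry genes into liver) bearing mouse Nudt7, and from 4 that received the virus carrying GFP. Each animal was injected at 8 weeks of age with 2.5e+11 particles in 150 µl, and the livers, from animals then 11 to 12 weeks old, were taken 3 to 4 weeks later after 24 h without food. Every liver was therefore a virus-treated, fasted liver, and none was uninjected or fed. The promoter of the vectors is not given in the sources used here. Nudt7 encodes a peroxisomal hydrolase of coenzyme A and its acyl esters, and its RNA stood at 1301, 1599, 3569 and 1555 CPM (reads of the gene per 1000000, on scaled library sizes) in Nudt7 livers 1 to 4, against 60.7 to 79.9 CPM in GFP livers.

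NAD carries electrons between oxidation reactions and the respiratory chain, and is also split by sirtuins, poly(ADP-ribose) polymerases and CD38. The liver can build it from tryptophan by way of quinolinate, from nicotinic acid, or from nicotinamide and its riboside. Mitochondria hold an NAD pool of their own, on which fatty acid oxidation and ketone body formation in fasting depend, and SLC25A51 was identified in human cells as the carrier that fills it.

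The libraries held 11187806 to 15487092 estimated reads in the Nudt7 group and 11466892 to 23640734 in the GFP group. Nudt7 liver 3 stood apart, at 63.1 on the first principal component (36.3% of the variance) against −19.9 to 2.83 for the other 7 libraries. In that library, genes in the shortest of 3 equal classes of effective length lay 0.42 log2 units above the mean of the other Nudt7 livers (median), and those in the longest class lay at −0.35. Of 50 listed cell type markers, 41 could be tested and 0 were at 0 reads in all livers. Of the 41, 0 were called by edgeR, where 0.117% of all genes tested were called. For a list of this length, 0 calls say little about the cell types. The 8 hepatocyte markers summed to 67547 to 103034 CPM in Nudt7 livers, against 80618 to 101846 CPM in GFP livers. The 6 red blood cell markers summed to 1814 CPM in Nudt7 liver 3 and to 303 to 642 CPM in the other 7, and the 5 bile duct markers to 31.6 to 42.5 CPM in Nudt7 livers against 17.3 to 29.4 CPM in GFP livers, which did not overlap. The 6 sinusoidal endothelial markers did not overlap either and were lower, as Slc25a51 was, at 357 to 390.3 CPM in Nudt7 livers, against 409 to 444 CPM in GFP livers. The summed levels of the other 6 lists overlapped. Of all genes tested, taken singly, 5.75% had groups without overlap. The part of these differences in the results below was not tested. In whole tissue, fewer cells of a type and less RNA per cell cannot be told apart.

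Slc25a51 (ENSMUSG00000045973.18, chromosome 4, 45395923 to 45408766, minus strand, GRCm38) has 6 transcripts in the files, and its TPM depends on which of them the reads were assigned to. The long coding pair, ENSMUST00000107796.7 (4433 bases) and ENSMUST00000116341.3 (4438 bases), runs through the same 3 exons and ends in one exon of 4257 bases. All of the shorter is contained in the longer, which has 5 more bases at its start, so reads can hardly separate them and they were summed here. The annotation gives them different start codons in 1 reading frame, 17 codons apart, for proteins of 315 and 298 codons. The first 60 coding bases of the model with the earlier start, from chr4:45404727-45404735 and chr4:45400129-45400179 (minus strand), are shown with both annotated start codons in capitals, since they are the only annotated coding difference between these transcripts.
Slc25a51 coding start: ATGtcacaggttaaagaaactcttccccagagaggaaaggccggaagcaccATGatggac
The non-coding transcript, ENSMUST00000134714.1 (1022 bases), is annotated as a processed transcript with no coding sequence. After a first exon shared with the long pair it has an exon of 981 bases (chr4:45407172-45408152) that lies within the first intron of the long coding pair. None of the 951 words of 31 bases in this exon occurs in another Slc25a51 transcript or in a transcript of another gene (0 of 951 in both cases). Its first 100 bases, from chr4:45408053-45408152 (minus strand), are shown because, of the annotated transcripts, reads from here can be placed on this one alone. Reads from unspliced RNA of the gene would also fall here, and the counts cannot tell them apart.
Slc25a51 non-coding transcript, own exon: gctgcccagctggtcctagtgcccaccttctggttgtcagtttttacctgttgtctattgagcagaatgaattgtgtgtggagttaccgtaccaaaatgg
Both sequences were read from the GENCODE M21 transcripts. The other 3 are short coding models. A predicted miRNA gene, Gm25692, is annotated within the last exon on the same strand, and 275 of the 5500 words of 31 bases in Slc25a51 also occur in other genes.

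**Figure D1:**
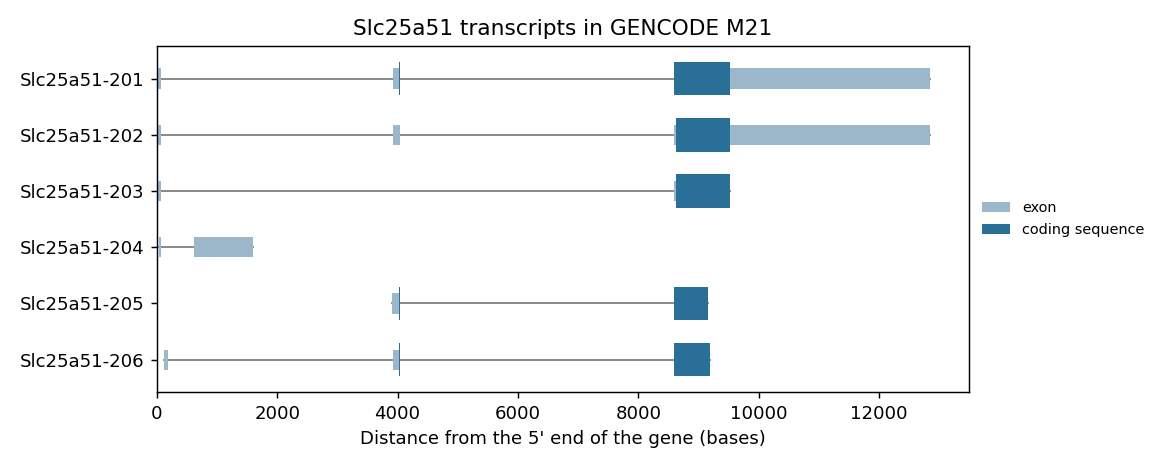
The 6 Slc25a51 transcripts of the annotation, drawn to scale as distance in bases from the 5′ end of the gene, with exons in pale blue and coding sequence in dark blue. The long coding pair (top 2 lines) shares its exons, and the exon of 981 bases of the non-coding transcript (the line without coding sequence) lies apart from the exons of the 5 coding transcripts.

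Slc25a51 was lower in every Nudt7 liver than in every GFP liver. It stood at 156, 142, 111 and 118 CPM in Nudt7 livers 1 to 4, against 258, 240.2, 314 and 321 CPM in GFP livers 1 to 4. The lowest GFP liver was thus above the highest Nudt7 liver. The spread in CPM was wider among the GFP livers, but not when set against their higher mean. The means were 132 ± 21.1 CPM in Nudt7 livers, against 283 ± 40.4 CPM in GFP livers (SD, n = 4 each), 2.15-fold higher in GFP. The fit across all genes (edgeR) put the log2 fold change at −1.10 (SE 0.15, 95% interval −1.44 to −0.77). Of all 13678 genes tested, 0.0731% were called lower at an adjusted p under 0.05 and 3% were lower with no overlap between the groups, while 53 genes had a lower fold change. The value was −1.02 without Nudt7 liver 3, and it ran from −1.18 to −1.02 as each library was left out in turn. The adjusted p that put Slc25a51 among the called genes stayed under 0.05 in 1 of those 8 fits, the one without Nudt7 liver 3.

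Within the Nudt7 group, the liver with most Nudt7 RNA had least Slc25a51. Nudt7 liver 3 had 3569 CPM of Nudt7 and 111 CPM of Slc25a51, and Nudt7 liver 1, with the least Nudt7 RNA, 1301 CPM, had 156 CPM of Slc25a51. Nudt7 livers 2 and 4 were almost alike in Nudt7, at 1599 and 1555 CPM, and had 142 and 118 CPM of Slc25a51. Liver 3 is also the library that stands apart. No test of a relation between the levels of these genes was run.

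The difference was present in both stretches of sequence. The non-coding transcript stood at 37.5, 43.5, 25.4 and 30.7 TPM (abundance per transcript length, scaled to 1000000 in a library) in Nudt7 livers 1 to 4, against 87.6, 80.2, 108 and 106 TPM in GFP livers 1 to 4. Every GFP liver was far above every Nudt7 liver. The long coding pair stood at 46.9, 38.8, 24.8 and 35.5 TPM in Nudt7 livers, against 73.3, 68.4, 94.97 and 82.9 TPM in GFP livers, again with no overlap. The means differed 2.79-fold for the non-coding transcript (34.3 ± 7.89 TPM in Nudt7 livers, 95.6 ± 13.8 TPM in GFP livers) and 2.19-fold for the long pair (36.5 ± 9.17 TPM in Nudt7 livers, 79.9 ± 11.7 TPM in GFP livers; SD, n = 4 each). The 3 short coding transcripts summed to 13.7 ± 6.35 TPM in Nudt7 livers, against 34.7 ± 6.03 TPM in GFP livers.

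When the reads of the non-coding transcript were kept apart in the fit across all genes, an alternative chosen after seeing the data, the log2 fold change was −1.41 (95% interval −1.77 to −1.05) for it alone and −1.05 (95% interval −1.39 to −0.72) for the rest of the gene. Set against the long coding pair within a liver, it was at 0.80, 1.12, 1.02 and 0.86 of the pair's TPM in Nudt7 livers 1 to 4 and at 1.20, 1.17, 1.14 and 1.28 in GFP livers 1 to 4. These ratios did not overlap, although the highest Nudt7 liver and the lowest GFP liver lay close together. Over all genes tested, 5.75% had CPM groups without overlap, and no such share is given here for ratios of transcripts. The intervals of the fold changes above overlapped. The non-coding transcript held 12.8% ± 1.59 of the reads of the gene in Nudt7 livers, against 15.7% ± 0.322 in GFP livers. As it is short, its share of the TPM was larger, 40.95% ± 3.19 in Nudt7 livers, against 45.4% ± 1.33 in GFP livers (SD, n = 4 each), and these shares overlapped. Within the long pair, the deposited split gave the shorter 12.6 ± 3.45 TPM in Nudt7 livers, against 40.6 ± 5.10 TPM in GFP livers, and the longer 23.95 ± 7.31 TPM in Nudt7 livers, against 39.3 ± 9.57 TPM in GFP livers. This split rests on few bases and nothing is read from it.

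**Figure D2:**
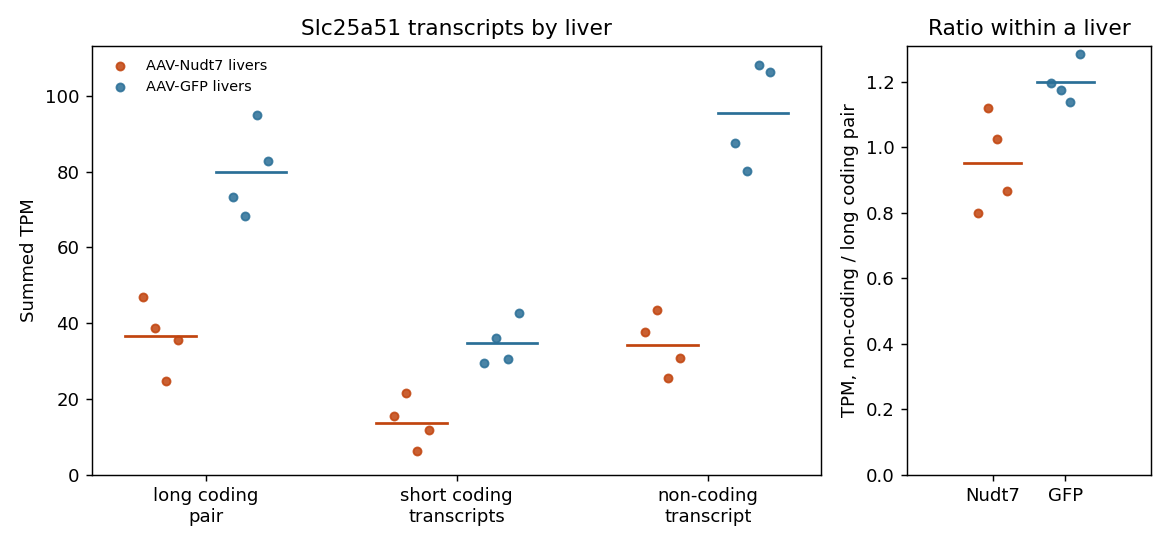
Left, summed TPM of Slc25a51 transcripts in each liver (points, 4 Nudt7 livers in orange left of 4 GFP livers in blue, lines are means); right, the TPM of the non-coding transcript over that of the long coding pair in the same liver. The non-coding transcript lay at 25.4 to 43.5 TPM in Nudt7 livers, against 80.2 to 108 TPM in GFP livers, and its ratio at 0.80 to 1.12 in Nudt7 livers, against 1.14 to 1.28 in GFP livers.

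On the TPM scale, which allows levels of different genes to be compared, the last 5 places of the 10 genes were the same in both groups and the first 5 were not. In Nudt7 livers Nadk came first with 103 ± 17.4 TPM, ahead of Slc25a51 with 84.5 ± 21.9 TPM and Qprt with 74.3 ± 9.53 TPM. In GFP livers Slc25a51 came first with 210.1 ± 26.2 TPM, ahead of Nadk with 104 ± 13.0 TPM and Naprt with 60.7 ± 8.48 TPM (SD, n = 4 each). Slc25a51 ranked 2, 2, 3 and 2 in Nudt7 livers 1 to 4 and 1 in each GFP liver. It made up 14.9% to 21.02% of the summed TPM of the 10 genes in Nudt7 livers, against 32.3% to 41.7% in GFP livers. The other 9 genes together came to 372 ± 34.7 TPM in Nudt7 livers, against 365 ± 31.9 TPM in GFP livers.

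The first place in 1 of the 4 GFP livers depends on the non-coding transcript. With it left out, Slc25a51 ranked between 3 and 5 in Nudt7 livers and first or second in GFP livers. Among neighbours in the order of the Nudt7 livers, the ranges overlapped from Nadk down to Naprt and from Nmrk1 down to Nadsyn1. In GFP livers they overlapped between Naprt and Qprt and between Qprt and Nadk2, and the other neighbours were apart. The lowest levels were those of Nmnat3, with 5.19 ± 1.13 TPM in Nudt7 livers, against 4.86 ± 0.698 TPM in GFP livers.

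**Figure D3:**
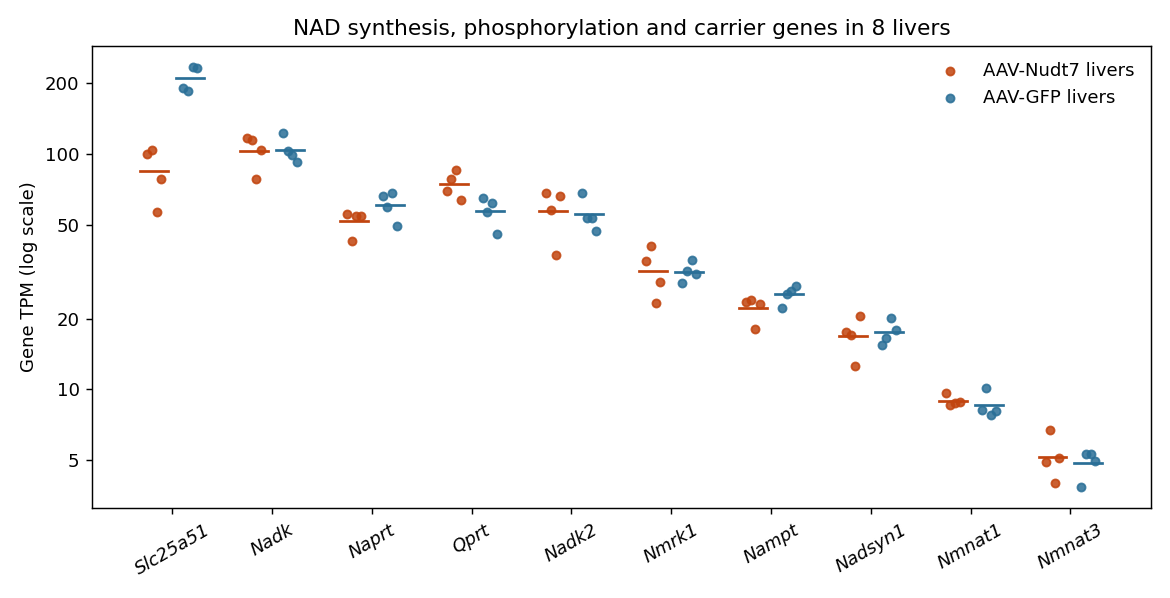
TPM of the 10 genes in each liver on a log scale (points, 4 Nudt7 livers in orange left of 4 GFP livers in blue, lines are means), ordered by the mean in GFP livers. Slc25a51 lies at 56.5 to 104 TPM in Nudt7 livers, against 185 to 233 TPM in GFP livers, whereas the ranges of the other 9 genes overlap.

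Of the other 9 genes 0 passed the test in edgeR, and 0 did so in DESeq2, limma-voom or limma-voom with sample weights. The share of all genes called was 0.117% in edgeR, with 0.0439% higher, 1.19% in DESeq2, 0.0731% in limma-voom and 0.731% in limma-voom with weights. One of the 9, Qprt, had an unadjusted p under 0.05 and was higher, where 4.25% of all genes were higher at that level and 8.28% had such a p in either direction. The 9 had a median log2 fold change of 0.14, with 7 positive and 2 negative, and the median of all genes tested was near 0, with 6814 positive and 6864 negative.

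Qprt (ENSMUSG00000030674.5, chromosome 7, 127107114 to 127122226) encodes quinolinate phosphoribosyltransferase, the enzyme that joins the tryptophan route to NAD synthesis. It stood at 88.2, 101, 158 and 79.2 CPM in Nudt7 livers 1 to 4, against 74.8, 68.4, 69.7 and 61.6 CPM in GFP livers 1 to 4. All Nudt7 livers lay above all GFP livers, by a small margin and with liver 3 far above the rest, whereas on the TPM scale the groups overlapped (63.7 to 85.5 TPM in Nudt7 livers, 45.8 to 64.8 TPM in GFP livers). Groups without overlap and a higher Nudt7 level were found for 2.74% of all genes. The log2 fold change was 0.64 (SE 0.20, 95% interval 0.21 to 1.07, edgeR adjusted p = 0.386), and it was 0.40 (adjusted p = 0.233) without Nudt7 liver 3. Naprt encodes the enzyme that makes the same mononucleotide from nicotinic acid. It stood at 65.4, 50.9, 87.7 and 60.9 CPM in Nudt7 livers and 77.7, 67.8, 70.9 and 60.7 CPM in GFP livers, with a log2 fold change of −0.06 (95% interval −0.42 to 0.29, edgeR adjusted p = 0.923). The ratio of Qprt to Naprt TPM was 1.17 to 1.83 in Nudt7 livers, against 0.91 to 0.98 in GFP livers, so that Qprt exceeded Naprt in 4 of 4 Nudt7 livers and 0 of 4 GFP livers. The ratio of Qprt to Nampt TPM overlapped between the groups, at 2.75 to 4.75 in Nudt7 livers, against 1.67 to 2.91 in GFP livers. The ratio to Naprt was looked at after the values were seen. The share of all gene pairs that separate in this way is not given here. Of the 2409 words of 31 bases in Naprt, 247 are shared with Eef1d, a gene that overlaps it on the same strand.

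The genes that make NAD from nicotinamide and its riboside showed small differences. Nampt (ENSMUSG00000020572.8, chromosome 12) encodes the rate-limiting enzyme of nicotinamide salvage and is known as an output of the circadian clock. It stood at 54.0, 60.1, 54.7 and 58.1 CPM in Nudt7 livers 1 to 4, against 56.97, 64.5, 65.1 and 73.1 CPM in GFP livers 1 to 4. The Nudt7 livers lay close together and overlapped the GFP range at its lower end. Its log2 fold change was −0.19 (SE 0.11, 95% interval −0.44 to 0.05, edgeR adjusted p = 0.670). Nmrk1, the nicotinamide riboside kinase gene, had 24.6 to 35.1 CPM in Nudt7 livers, against 22.7 to 30.7 CPM in GFP livers (log2 fold change 0.10, 95% interval −0.21 to 0.41).

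By mean TPM, the RNA of Nmnat1 and Nmnat3 in whole liver was the least abundant of the 10 genes in both groups. Nmnat1, which encodes the nuclear NMN adenylyltransferase, had 12.5 to 15.7 CPM in Nudt7 livers, against 11.4 to 15.4 CPM in GFP livers (0.15, 95% interval −0.16 to 0.46 on the log2 scale). Nmnat3, the gene of the mitochondrial form, had 6.09 to 7.95 CPM in Nudt7 livers, against 4.50 to 6.74 CPM in GFP livers (0.20, 95% interval −0.19 to 0.60 on the log2 scale). The TPM of Nmnat1 was 1.79 ± 0.388 times that of Nmnat3 in Nudt7 livers, against 1.78 ± 0.288 times in GFP livers (SD, n = 4 each). Nadsyn1, which encodes the glutamine-dependent NAD synthetase that finishes the routes from quinolinate and nicotinic acid, had 20.2 to 26.7 CPM in Nudt7 livers, against 19.7 to 23.9 CPM in GFP livers (0.05, 95% interval −0.23 to 0.33 on the log2 scale). Its value was −0.04 without Nudt7 liver 3, which had the highest of the 8 levels in CPM but the lowest in TPM, 12.6 TPM against 15.4 to 20.5 TPM in the other 7.

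The NAD kinases were among the most abundant of the 10 genes. Nadk, of the cytosolic enzyme (ENSMUSG00000029063.16, chromosome 4), stood at 211, 215, 218 and 199 CPM in Nudt7 livers 1 to 4, against 222, 178, 166 and 185 CPM in GFP livers 1 to 4. Of the Nudt7 livers, 4 of 4 lay above 3 of the 4 GFP livers and below the first (log2 fold change 0.16, SE 0.12, 95% interval −0.11 to 0.44, edgeR adjusted p = 0.719). This order was not seen in TPM, where Nudt7 liver 3 was the lowest of the 8, at 78.3 TPM. The TPM ratio of Nudt7 over GFP livers was 0.992. Nadk2, of the mitochondrial enzyme (ENSMUSG00000022253.15, chromosome 15), stood at 133, 109, 80.4 and 122 CPM in Nudt7 livers and 121, 94.1, 96.9 and 90.6 CPM in GFP livers, and Nudt7 liver 3 was the lowest of the 8 (log2 fold change 0.14, 95% interval −0.22 to 0.50, edgeR adjusted p = 0.812). Nadk had 1.84 ± 0.246 times the TPM of Nadk2 in Nudt7 livers, against 1.88 ± 0.0748 times in GFP livers, while Slc25a51 had 1.18 to 1.79 times the TPM of Nadk2 in Nudt7 livers, against 2.79 to 4.93 times in GFP livers.

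Most members had a main transcript with the larger part of their TPM. It was Nampt-201 for Nampt (91.3% ± 4.71 in Nudt7 livers, 95.9% ± 1.30 in GFP livers), Qprt-201 for Qprt (94.1% ± 3.32 in Nudt7 livers, 88.3% ± 3.80 in GFP livers) and Nadk-203 for Nadk (78.6% ± 5.21 in Nudt7 livers, 71.7% ± 4.98 in GFP livers; SD, n = 4 each). All 3 are coding. Naprt had 1 transcript in the files. Slc25a51 was the member whose transcript with the highest mean TPM in GFP livers is annotated without coding sequence, and for the other 9 it was a coding one.

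A wider list of 44 NAD genes, by gene identifier, gave 42 that could be tested, of which 0 were called by edgeR and 0 by the other 3 tools. The share of all genes called was 0.117% in edgeR, 1.19% in DESeq2, 0.0731% in limma-voom and 0.731% in limma-voom with weights. At such shares, 0 calls do not show that the list was unchanged. Of the 42, 22 had positive and 20 negative fold changes, with a median of 0.01 on the log2 scale. An unadjusted p under 0.05 was found for 4 of the 42, where 8.28% of all genes had such a p in either direction. All 4 were lower in Nudt7 livers, where 4.03% of all genes were lower at that level. Enzymes of the route from tryptophan to quinolinate numbered 10 tested, with 5 positive, 5 negative and a median of 0.04. Acmsd, whose enzyme diverts the precursor of quinolinate to oxidation and so away from NAD, stood at 17.5, 18.2, 19.4 and 15.7 CPM in Nudt7 livers 1 to 4, against 19.7, 36.6, 34.1 and 24.2 CPM in GFP livers 1 to 4. The groups did not overlap, though the highest Nudt7 liver and the lowest GFP liver were almost level (log2 fold change −0.69, SE 0.19, edgeR adjusted p = 0.281). Kyat3, a kynurenine aminotransferase gene, had 72.8 to 94.1 CPM in Nudt7 livers, against 99.1 to 121 CPM in GFP livers (−0.40, SE 0.12, edgeR adjusted p = 0.392). In CPM, 2 of the 10 tested genes of this route, Acmsd and Kyat3, were lower with no overlap between the groups. Over all genes, 3% were lower with no overlap. In TPM the groups of Kyat3 overlapped and those of Acmsd did not. Aadat, another aminotransferase gene of the pathway, was at 0.25 (SE 0.14, edgeR adjusted p = 0.664). Tdo2, the gene of the enzyme that opens the route, was the most abundant of the list, with 1464 to 2521 TPM in Nudt7 livers, against 1636 to 2068 TPM in GFP livers.

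Among 16 tested genes of NAD-consuming enzymes, 7 had positive and 9 negative fold changes. Sirt1, a deacetylase gene, stood at 14.7, 13.6, 11.2 and 13.3 CPM in Nudt7 livers 1 to 4, against 18.7, 18.4, 16.4 and 17.1 CPM in GFP livers 1 to 4, with no overlap (log2 fold change −0.42, SE 0.13, edgeR adjusted p = 0.365). Parp3 was at 0.24 (SE 0.12, edgeR adjusted p = 0.643) and the tankyrase gene Tnks at −0.30 (SE 0.17, edgeR adjusted p = 0.667). Groups without overlap were seen for 2 genes of this list that were higher, Parp1 and Parp3, and for Sirt1, which was lower. Over all genes, 5.75% had groups without overlap. These 3 separations were seen in CPM, and in TPM all 3 genes overlapped. The TPM ratio of Nudt7 over GFP livers was 0.896 for Parp1 and 0.985 for Parp3, so that their direction turned with the scale, and 0.643 for Sirt1.

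The remaining lists were short. Of 5 other synthesis and salvage genes, Nt5e, the gene of an ectoenzyme that can dephosphorylate NMN, was at −0.33 (SE 0.15, edgeR adjusted p = 0.590), Slc12a8 at −0.36 (SE 0.25) and Nmnat2 at 0.45 (SE 0.37). Nnmt, which encodes the enzyme that methylates nicotinamide for disposal, had 51.1 to 172 CPM in Nudt7 livers, against 102 to 115 CPM in GFP livers (−0.11, 95% interval −0.73 to 0.50 on the log2 scale), and the aldehyde oxidase genes Aox1 and Aox3 were at 0.08 (SE 0.15) and 0.38 (SE 0.34). Naxe, which encodes an enzyme that repairs hydrated NAD(P)H, was at 0.42 (SE 0.23, edgeR adjusted p = 0.664). Nnt, the mitochondrial transhydrogenase gene, in which C57BL/6J mice carry a deletion, is listed under a pair of overlapping identifiers. These were at −0.32 (SE 0.24) and 0.59 (SE 0.43), and their sum was 45.6 ± 5.01 CPM in Nudt7 livers, against 47.4 ± 6.59 CPM in GFP livers (SD, n = 4 each), so the split between them is uncertain.

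**Figure D4:**
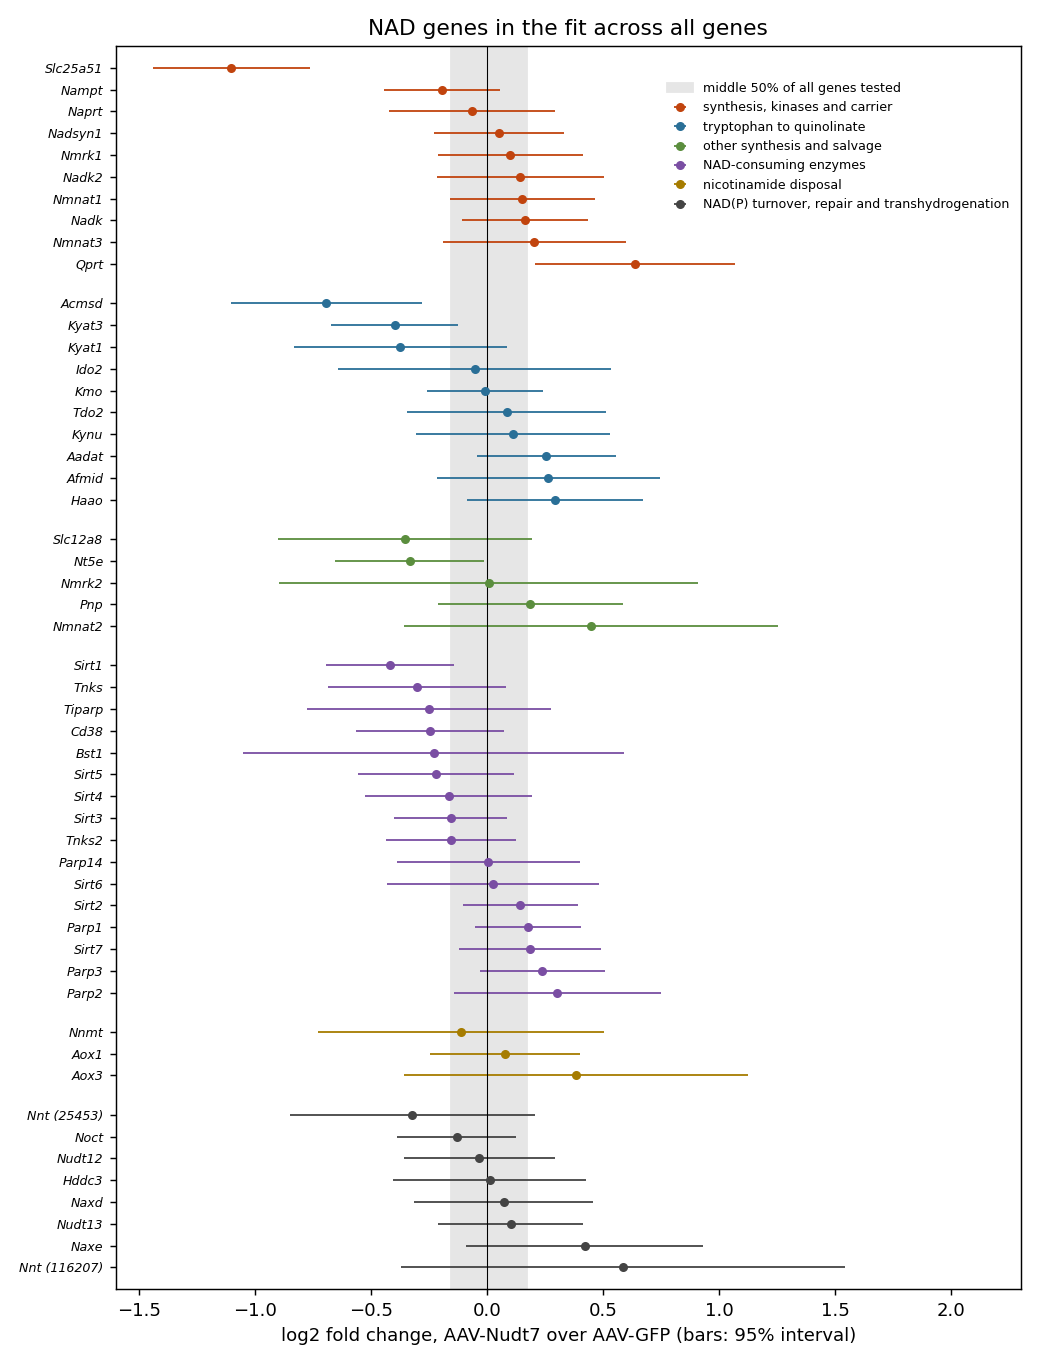
Log2 fold change of Nudt7 over GFP livers for the 10 genes and the 42 tested genes of the wider list (points, with 95% intervals from the fit across all genes), grouped by role; the grey band is the interquartile range of all genes tested. Slc25a51 lies at −1.10, apart from the other 9 genes, which lie between −0.19 and 0.64.

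Slc25a51 also had the lowest fold change of the 42 tested genes of the mitochondrial carrier family (symbols Slc25a and a number). As Slc25a51 was listed with its lower level known, this place is a description and no support. Next came Slc25a27 at −0.78 (SE 0.21, edgeR adjusted p = 0.277) and Slc25a32 at −0.65 (SE 0.16, edgeR adjusted p = 0.225). Slc25a27 had few reads, with 2.39 to 3.62 CPM in Nudt7 livers, against 4.01 to 6.51 CPM in GFP livers. At the other end, Slc25a10 had the highest fold change, 0.69 (SE 0.16, edgeR adjusted p = 0.190). Apart from Slc25a51, 0 of the family were called by edgeR, where 0.117% of all genes were called. The median of the family without Slc25a51 was 0.03 on the log2 scale. Of these 41 genes 5 had an unadjusted p under 0.05, 2 higher and 3 lower, where 8.28% of all genes had such a p, 4.25% higher and 4.03% lower. By mean TPM Slc25a51 ranked number 10 of the 42 in Nudt7 livers and number 6 in GFP livers.

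Genes were also ranked by how closely they followed Slc25a51 from liver to liver once each group's mean had been taken out, by the lower of Pearson's r over the 8 livers and over the 7 without Nudt7 liver 3, among 9669 genes with a mean of at least 5 CPM. The most alike were Tbc1d14 (r = 0.96 over 8 livers and 0.95 over 7), Brwd1 (0.96 and 0.94), the predicted gene Gm28661 (0.95 and 0.94), Rxra, a nuclear receptor gene (0.92 and 0.94), and Ostm1 (0.91 and 0.92). Their own log2 fold changes between the groups were small, from −0.33 for Brwd1 to 0.07 for Tbc1d14. These r values are the highest of 9669 over few livers that share depth and library effects, and are a description. Of the other 9 members, Nmrk1 followed Slc25a51 most closely (0.65 over 8 livers and 0.64 over 7), Nampt was at 0.38 and 0.33, and Naprt was at −0.52 and −0.22.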

How the data were processed

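The authors deposited 1 table per library, with 109282 transcripts. Per the file headers, these deposited tables give the estimated count of reads per transcript, not normalised, its TPM and its effective length. Per the submitters' processing notes, FastQC, Salmon and DESeq2 were used with GRCm38; the Salmon version, index and options, strand included, are not stated in the sources used here. Per the labels' protocols, the libraries were stranded mRNA libraries (500 ng input, 9 PCR cycles).

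Transcripts were named by identifier from GENCODE M21 (98.8% of them). The unnamed held 0.552% to 1.06% of reads. Estimated counts were summed per gene and rounded. The main test was the quasi-likelihood test of edgeR 4.0.16 (R 4.3.3) with robust estimation, TMM scaling and filterByExpr by group, which left 13678 genes. Tests were two-sided, p-values were adjusted over these genes by Benjamini-Hochberg, and the threshold was 0.05. CPM was computed on library sizes scaled by TMM. The biological coefficient of variation common to all genes was 0.196. DESeq2 1.42.0, limma 3.58.1, other filters and scalings, and fits without each library were alternatives. The procedure was also run on simulated counts, drawn with the common coefficient of variation for every gene and with no outlying library. They are thus unlike these livers, and nothing is read from that run.

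The 10 genes and the other lists were chosen with earlier results of these data known. Of each pathway list, called genes and the 3 with the smallest unadjusted p were named; other genes were named after their values were seen. The labels give no batch or pairing, and name separate mice. Genes at a few CPM, such as Nmnat3 with 65 to 155 estimated reads in a library, are the least precise.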

Additional observations from a re-analysis of the deposited data

Results flagged for a closer look

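Of 56 groups of 4 livers examined for the 10 genes, the named pathway genes and the Slc25a51 transcript shares, 4 held a liver far from the other 3, and chance gives about 1 in 20. Nadsyn1 was at 26.7 CPM in Nudt7 liver 3, against 20.2 to 21.2 CPM in the other Nudt7 livers, whereas in TPM the same liver was the lowest of the 8, at 12.6 TPM. Naxe was at 48.8 CPM in Nudt7 liver 3, against 22.0 to 24.8 CPM in the others. Aox3 was at 138.5 CPM in Nudt7 liver 1, against 66.7 to 75.9 CPM in the others. The non-coding Slc25a51 transcript held 43.4% of the TPM of the gene in GFP liver 2, against 45.9% to 46.3% in the other GFP livers.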

How the results depend on the processing

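The Slc25a51 log2 fold change stayed negative under all 20 alternatives, from −1.18 to −1.02 as each library was left out. Its CPM did not overlap between the groups, and it was listed with that difference known. Leaving out 1 library could therefore not turn the sign, and the stable sign is no support. Its adjusted p in edgeR stayed under 0.05 in 1 of the 8 fits with a library left out. On log2(TPM + 1) it was −1.33 and on log2(TPM + 0.1) −1.34; the cause was not tested. The other 9 members and the wider list had 0 calls under all 18 alternatives run for them. Over all genes, calls of higher and lower genes numbered 88 and 64 in DESeq2 and 58 and 42 in limma-voom with sample weights, where edgeR gave 6 and 10. Limma-voom called 5 lower, edgeR without robust estimation 6 lower, edgeR without a filter 15 higher, and edgeR with the length trend removed 22 higher; the cause was not tested. With 1 library left out, 1 to 8 were called higher and 1 to 12 lower, with 1 and 1 without Nudt7 replicate 1 or GFP replicate 4, 2 and 1 without GFP replicate 2, 3 and 2 without GFP replicate 1, 4 and 1 without Nudt7 replicate 4, 4 and 5 without Nudt7 replicate 2, and 8 and 5 without Nudt7 replicate 3. Among 24 single genes, 5 of 431 values changed sign. With each library left out, Naprt ran from −0.22 to 0.042 (positive without Nudt7 replicate 2, and 0.0100 without GFP replicate 1), Aox1 from −0.035 to 0.17 (negative without Nudt7 replicate 2), Nadsyn1 from −0.037 to 0.13 (negative without Nudt7 replicate 3) and Nnmt from −0.49 to 0.11 (positive without Nudt7 replicate 4); the cause was not tested. The difference in the share of the non-coding Slc25a51 transcript ran from −5.79 to −3.34 percentage points of TPM as each library was left out, and was −2.98 points as a share of reads. No paired analysis was possible because replicate numbers were given in accession order and only name the mice, and nothing in the labels ties a Nudt7 mouse to a GFP mouse.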
